A study of Rattus norvegicus with 24 samples.

Results

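The genes described here are those of glycolysis and of the response to low oxygen, followed through doxorubicin treatment of cultured rat heart muscle cells. The list holds 38 genes chosen by function, from glucose uptake to lactate export, with the hypoxia-inducible factor (HIF) subunit Hif1a, its regulators and its target genes. Of them 37 are in the deposited table of 21767 gene symbols, all 37 passed the filter on low counts beside 14303 genes tested in all, and Pfkfb4 was not analysed here. The study asked whether mimics of 2 microRNAs, miR-455-3p and miR-222-3p, singly or combined, protect heart muscle cells against doxorubicin, an anthracycline cancer drug that damages the heart. Neonatal ventricular myocytes of Sprague-Dawley rats were plated in high-glucose medium with pyruvate and serum, and every group was transfected with mimics by Lipofectamine RNAiMax. The 4 doxorubicin groups received both mimics, the miR-455 mimic, the miR-222 mimic or a negative control mimic at 5 nM of each mimic, and doxorubicin followed 48 h after transfection for 24 h. The 4 groups without doxorubicin received the same mimics and a control treatment. Each of the 8 groups holds 3 libraries of polyA RNA. The dose reads 4 uM in the sample protocol and 4 mM in the series text, and which is right is not settled here. The labels do not say whether the replicates are separate cultures, animals or days, so the p-values speak only to the spread among these libraries, which may be technical.

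Glycolysis converts glucose to pyruvate in a chain of enzymes, and pyruvate then either becomes lactate or enters the mitochondrion through pyruvate dehydrogenase. When oxygen is low, the HIF prolyl hydroxylases no longer mark the HIF alpha subunit for degradation, and the stabilised factor raises transcription of glucose transporters, most glycolytic enzymes, lactate exporters, angiogenic factors and its own hydroxylases. Neonatal heart muscle relies on glucose more than adult heart muscle does.

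The libraries held 17311949 to 25750309 counts in total, with at least 10 counts for 11469 to 13524 genes. Cardiomyocyte markers were high in every library, with Myh6 at 5303 to 20479 CPM (read counts relative to library size, here scaled by trimmed mean of M values, TMM) and Tnnt2 at 2609 to 10947 CPM, while Nkx2-5 ranged from 0 to 129.7 CPM. The cultures also held fibroblast transcripts, with Col1a1 at 9133 to 37437 CPM. Endothelial markers summed to 11.5 to 66.6 CPM, most of it from Kdr and Tek together, while Cdh5 and Emcn reached 0.773 and 0.357 CPM at most. Tek had 3.90 to 25.7 CPM (median 16.3) and Kdr 0.256 to 45.8 CPM (median 10.2). With doxorubicin Kdr averaged 1.09 CPM with both mimics, 1.15 with miR-455, 0.835 with miR-222 and 7.63 with the control mimic. Macrophage and leukocyte markers summed to 7.19 to 24.3 CPM, with Cd14 at up to 14.2 and Lyz2 at up to 8.12 CPM, while Ptprc and Adgre1 reached 0.754 and 0.155 CPM at most. Summed over 8 cardiomyocyte markers, libraries with doxorubicin had 17129 to 62371 CPM (median 29122) and those without had 19747 to 39821 CPM (median 23195). For 7 fibroblast markers the sums were 16154 to 52854 CPM (median 27529) with doxorubicin and 14784 to 29756 CPM (median 19651) without, and the part of this shift in the results below was not tested. In the average over mimic conditions described below, doxorubicin raised 2 and lowered 3 of the 8 cardiomyocyte markers, raised 2 of the 7 fibroblast markers, raised 4 and lowered 1 of 5 smooth muscle markers, raised 1 and lowered 1 of 4 endothelial markers, and raised 1 and lowered 2 of 4 macrophage markers. In bulk RNA, fewer cells of a type and less RNA per cell cannot be told apart. Gapdh and several other glycolytic genes have processed pseudogenes, and no source used here says how reads were divided among copies.

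The mature microRNAs that the mimics represent are shown with their seed, bases 2 to 8, in capitals, because the seeds differ and the mimics share no seed family. They are the RefSeq sequences on the rat build GRCr8, at chrX:6022682-6022702 for miR-222-3p and chr5:81704881-81704902 for miR-455-3p. The sequences of the mimics themselves are not given in the files.
rno-miR-455-3p: gCAGUCCAcgggcauauacacu
rno-miR-222-3p: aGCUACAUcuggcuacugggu

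HIF binds DNA at short motifs, here searched as ACGTG and GCGTG on both strands of the 250 bases before each RefSeq gene start on GRCr8, where ACGTG read on both strands of CACGTG counts as 2 matches. Of the 38 listed genes 35 had a promoter entry, and 21 of them (60%) held at least 1 match, against 36.7% of 33469 promoters of the same length. At least 2 matches were present in 16 of the 35 (45.7%), against 16% of all promoters. For each listed gene the first entry was used, while the 33469 were all entries, not limited to genes expressed here. Both motifs hold CG, and base composition was not matched. A match is a description and not a binding site. The promoters of Ankrd37, Bnip3 and Ldha, with 4 matches each, and of Egln3, with none in this window, are printed because these genes are followed below, with the matches in capitals, 5′ to 3′ on the strand of the gene. They lie at chr16:53001257-53001506, chr1:203154963-203155212, chr1:106507842-106508091 and chr6:77411016-77411265, on the plus strand for Ankrd37 and Ldha and the minus strand for Bnip3 and Egln3.
Ankrd37: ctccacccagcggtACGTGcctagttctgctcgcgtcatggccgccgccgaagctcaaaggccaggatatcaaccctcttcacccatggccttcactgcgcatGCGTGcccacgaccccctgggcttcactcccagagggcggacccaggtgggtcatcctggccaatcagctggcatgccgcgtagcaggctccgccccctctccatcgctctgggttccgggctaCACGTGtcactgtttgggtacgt
Bnip3: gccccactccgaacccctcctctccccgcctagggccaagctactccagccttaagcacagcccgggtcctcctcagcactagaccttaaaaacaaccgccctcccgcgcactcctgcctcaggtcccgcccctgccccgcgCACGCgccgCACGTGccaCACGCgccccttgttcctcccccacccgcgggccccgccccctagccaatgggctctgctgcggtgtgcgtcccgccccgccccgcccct
Ldha: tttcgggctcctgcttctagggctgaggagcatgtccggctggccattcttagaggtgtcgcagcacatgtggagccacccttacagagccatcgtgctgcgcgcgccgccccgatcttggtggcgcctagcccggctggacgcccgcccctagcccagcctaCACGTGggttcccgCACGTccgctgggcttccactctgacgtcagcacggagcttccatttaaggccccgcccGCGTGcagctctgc
Egln3: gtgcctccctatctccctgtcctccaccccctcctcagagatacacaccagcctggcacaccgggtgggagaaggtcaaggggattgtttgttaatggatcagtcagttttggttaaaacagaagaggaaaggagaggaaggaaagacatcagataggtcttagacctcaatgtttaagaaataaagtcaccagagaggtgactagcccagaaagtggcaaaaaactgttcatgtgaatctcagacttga

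Before any comparison, the libraries within single groups differed in these genes more than in most others. The range of log2 CPM over the 3 libraries of a group, as the median over the 8 groups, had a median of 1.45 over the 37 members and 0.75 over all genes tested, and 12 members lay at or above the 90th percentile of all genes. The widest were Ndrg1 at 3.52, Ankrd37 at 2.83, Bnip3 at 2.36, Ddit4 at 2.18, Slc2a4 at 2.14 and Pfkfb3 at 2.11, and the narrowest was Hk1 at 0.21. Ndrg1, a stress-responsive gene induced by HIF, shows the extent without doxorubicin: it had 24.8, 27.8 and 0.458 CPM with both mimics, 62.1, 4.77 and 61.1 CPM with miR-455, 42.2, 45.6 and 2.11 CPM with miR-222 and 3.66, 1.79 and 53.8 CPM with the control mimic, in the order of replicates 1 to 3. In each of the 3 mimic groups 1 library was far below the other 2, and in the control group 1 library was far above them.

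That pattern ran through nearly the whole list. Without doxorubicin, replicate 3 of both mimics, replicate 2 of miR-455 and replicate 3 of miR-222 each had the lowest value of their group for 35 of 37 members, against 50.9%, 44.4% and 44.3% of all genes tested. Replicate 3 of the control mimic alone had the highest value for 33 of 37 members, against 41.8% of all genes. The median member stood 2.17, 1.5 and 1.60 log2 units below the mean of the other 2 libraries in those 3 mimic libraries, and 1.31 above it in the control library. Of 40 HIF targets outside the list 29, 36 and 36 were lowest in the same mimic libraries, and 29 were highest in control replicate 3. Of 16 other HIF pathway genes 8, 8 and 7 were lowest, and 7 were highest in control replicate 3. Of 32 other genes of glycolysis, glycogen and pyruvate 21, 28 and 28 were lowest in these mimic libraries. In control replicate 3, however, 13 of the 32 (40.6%) were highest, against 41.8% of all genes. Hk1 and Slc16a1 were highest, not lowest, in replicate 2 of miR-455, Pfkp and Slc16a1 in replicate 3 of miR-222, and Pfkp and Hif1a in replicate 3 of both mimics. With doxorubicin, replicate 2 of miR-222 was highest for 31 of 37 members, against 37.5% of all genes, and replicate 1 lowest for 24, against 33.3%. Replicate 3 of the control mimic with doxorubicin was highest for 23 members, against 27.9%, and replicate 2 lowest for 21, against 27.7%.

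The share of counts from mitochondrially encoded transcripts also differed among the libraries of these groups. It was 24.9% in replicate 3 of both mimics without doxorubicin, against 8.16% and 6.82% in the other 2, and 9.83% in replicate 2 of miR-455, against 5.72% and 5.54%. In replicate 3 of miR-222 it was 8.70%, against 9.18% and 9.34%, and in control replicate 3 it was 9.11%, against 20.3% and 13.5%. Their part in the pattern was not tested. The 2 other libraries of each of these mimic groups were close to each other: a chi-square comparison of their counts gave 5.79 to 7.80 per degree of freedom, and 7.81 to 9.79 among the 3 libraries of doxorubicin with miR-455, while the 18 remaining pairs within groups had 51.4 to 575. These libraries were kept as separate samples, and counts of calls with close libraries averaged into 1, leaving 19 libraries, are given beside the main ones. The share of all genes called in that fit is not given here. A loss of member calls in it therefore cannot be told from a loss over all genes.

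**Figure D1:**
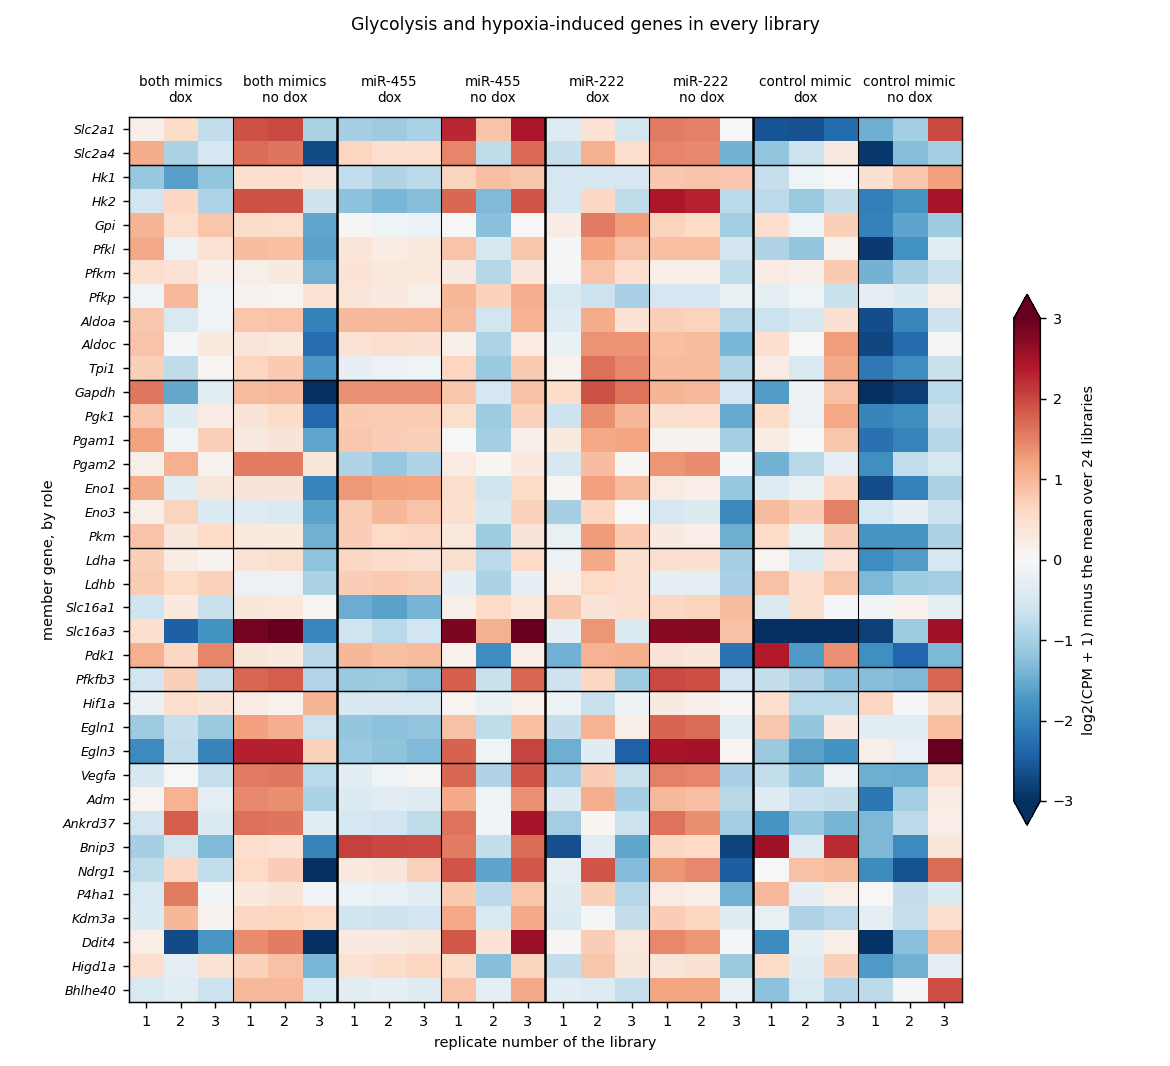
Each row is 1 member, ordered by role, and each column 1 of the 24 libraries, with doxorubicin left of no doxorubicin for each mimic. Colour is log2(CPM + 1) minus the mean of the row over the 24 libraries. Columns of replicate 3 of both mimics, replicate 2 of miR-455 and replicate 3 of miR-222 without doxorubicin are blue for most members. So are control replicates 1 and 2 without doxorubicin, and Hk1 is not blue in any of these columns. Control replicate 3 is red for Hk2, Slc2a1, Slc16a3 and Egln3 and blue for Gpi, Pgam1, Eno1 and Ldhb.

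Averaged over the 4 mimic conditions, doxorubicin was followed by higher transcripts for most enzymes of the later, ATP-forming phase of glycolysis and by lower transcripts for the glucose transporter Slc2a1, the lactate carriers Slc16a1 and Slc16a3, the HIF prolyl hydroxylases and several other HIF targets. By edgeR's quasi-likelihood test, 25 of the 37 members had a p under 0.05 after Benjamini-Hochberg adjustment over all genes, and of these 11 rose and 14 fell. The same average called 48.1% of all genes, 23.8% higher and 24.3% lower. The median log2 difference was -0.20 over the members and -0.02 over all genes. With close libraries averaged, 14 of the 25 remained called. The mitochondrially encoded share was 8.61% to 38.2% (median 14.2%) with doxorubicin and 5.54% to 24.9% (median 9.14%) without, and its part in these differences was not tested. The libraries with doxorubicin lay wholly above or wholly below all those without it for 3 members, Ldhb above and Hk1 and Egln3 below, and for 6% of all genes. Values after a gene name are log2 differences of doxorubicin minus no doxorubicin with their SE, from 12 libraries each.

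**Figure D2:**
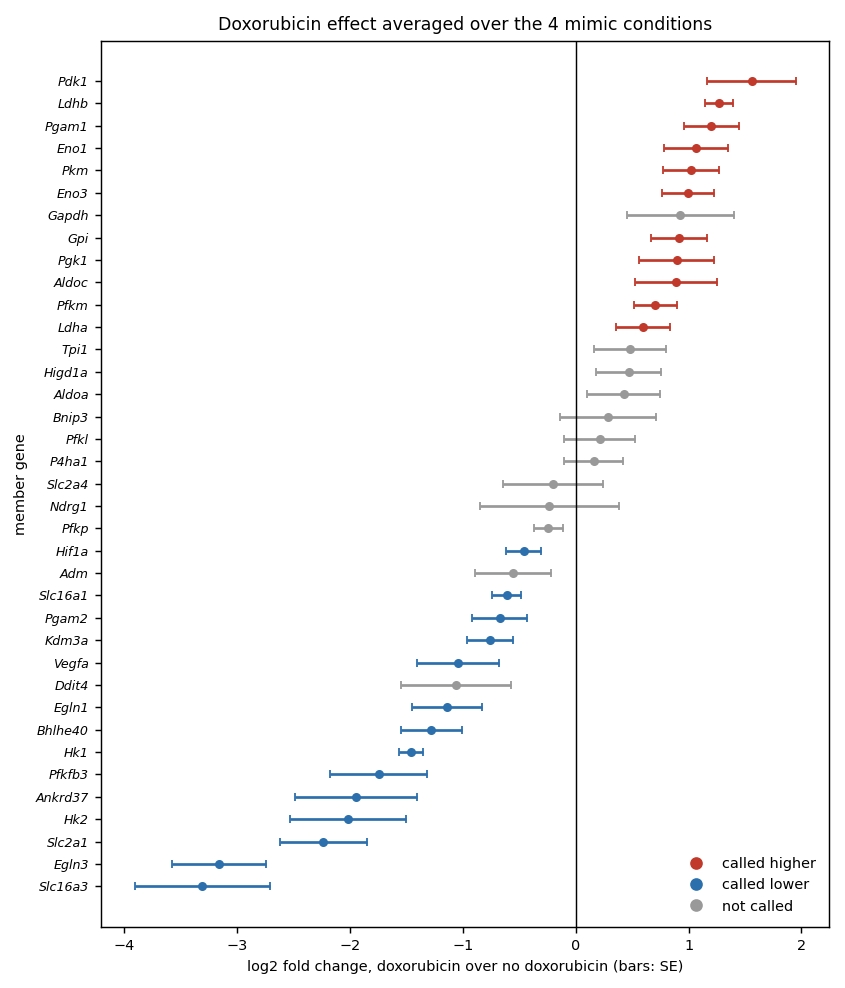
The horizontal axis is the log2 fold change of doxorubicin over no doxorubicin averaged over the 4 mimic conditions, with bars for the SE, for each of the 37 members. Red points passed the test upwards, from Ldha at 0.60 to Pdk1 at 1.56, blue points downwards, from Hif1a at -0.46 to Slc16a3 at -3.31, and grey points did not pass.

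Of the 2 glucose transporters, Slc2a1, the basal transporter that HIF induces, fell. It had 20.1 to 189 CPM (median 70.9) in 12 libraries with doxorubicin and 45.9 to 707 CPM (median 375) in 12 without. The ranges overlapped, and the log2 difference was -2.24 ± 0.39 (adjusted p = 7.40e-05) by edgeR's quasi-likelihood test with Benjamini-Hochberg adjustment. Slc2a4, the insulin-responsive transporter of muscle, had 13.4 to 70.5 CPM (median 42.0) with doxorubicin and 3.41 to 106 CPM (median 53.2) without, a difference of -0.20 ± 0.45 (adjusted p = 0.736) by the same test.

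In the early phase of glycolysis, which spends ATP to prime glucose, 3 of 9 members rose and 2 fell. Of 14303 genes tested, 3405 rose and 3474 fell in the same average. Hk1, the constitutive hexokinase bound to mitochondria, fell in every mimic condition. It had 44.3, 30.9 and 42.5 CPM with doxorubicin and both mimics, against 139.5, 139.9 and 124 CPM with both mimics alone. With miR-455 it had 58.3, 52.2 and 55.0 CPM with doxorubicin, against 156, 184 and 173 CPM without, and with miR-222 68.5, 69.5 and 68.9 CPM, against 172, 177 and 171 CPM. With the control mimic it had 59.9, 89.1 and 99.4 CPM with doxorubicin, against 134, 172 and 229 CPM without. All 12 libraries with doxorubicin were below all 12 without, and the log2 difference was -1.46 ± 0.10 (adjusted p = 8.39e-10) by edgeR's quasi-likelihood test, Benjamini-Hochberg adjusted. Hk2, the hexokinase that HIF induces, had 35.2 to 144 CPM (median 53.7) with doxorubicin and 21.6 to 522 CPM (median 327) without. It fell by the same test (-2.02 ± 0.51), but replicates 1 and 2 of the control mimic alone, at 21.6 and 26.5 CPM, were below every doxorubicin library, and the call was lost with close libraries averaged (adjusted p = 0.0737). Gpi, which isomerises glucose 6-phosphate, rose by 0.92 ± 0.25, and Pfkm, the muscle phosphofructokinase, by 0.71 ± 0.19. Aldoc, a minor aldolase, passed narrowly at 0.89 ± 0.36 (adjusted p = 0.0484). Pfkl, Pfkp, Aldoa and Tpi1 did not pass, with log2 differences of 0.21, -0.24, 0.42 and 0.48.

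In the later phase, which returns ATP and ends in pyruvate, 5 of 7 members rose and Pgam2 fell. The same average had 3405 of 14303 genes tested higher and 3474 lower. By condition Pgam2 had -0.76 with both mimics, -1.33 with miR-455, -0.80 with miR-222 and 0.19 with the control mimic, and none passed alone. Pgam1, the phosphoglycerate mutase of most tissues, had 3243, 1291 and 2315 CPM with doxorubicin and both mimics, against 1701, 1861 and 476 CPM without doxorubicin. With miR-455 it had 2474, 2369.7 and 2325 CPM, against 1417, 693 and 1579 CPM, and with miR-222 1723, 3172 and 3230.1 CPM, against 1523, 1516 and 695 CPM. With the control mimic it had 1656, 1404 and 2526 CPM with doxorubicin, against 298, 349.9 and 779 CPM without. The doxorubicin libraries were all higher in 3 of the 4 mimic conditions and overlapped the others with both mimics, where replicate 2 was low, and the log2 difference was 1.20 ± 0.24 (adjusted p = 4.05e-04) by edgeR's quasi-likelihood test, Benjamini-Hochberg adjusted. Eno1, the general enolase, rose by 1.07 ± 0.28, Eno3, the muscle enolase, by 1.00 ± 0.23, and Pkm, the pyruvate kinase of muscle, by 1.02 ± 0.25. Pgk1, the first ATP-forming enzyme of the pathway, rose by 0.89 ± 0.33 and lost its call with close libraries averaged (adjusted p = 0.0794). Gapdh did not pass at 0.93 ± 0.47, and had 644 to 7691 CPM (median 4555) with doxorubicin and 118 to 4176 CPM (median 2559.7) without. Its lowest values, 643.9 and 709.6 CPM with doxorubicin and 118.0 and 148.1 CPM without, were in the 4 libraries in which the smallest number of genes reached 10 counts. Pgam2, the muscle mutase, fell by 0.67 on the log2 scale (SE 0.25), a call lost with close libraries averaged (adjusted p = 0.216), with 3.33 to 23.4 CPM (median 7.92) with doxorubicin and 2.26 to 33.2 CPM (median 12.9) without.

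Around pyruvate and lactate the members split. Ldhb, the heart subunit of lactate dehydrogenase, had 2088, 1853 and 1966 CPM with doxorubicin and both mimics, against 1084, 1075 and 628 CPM without doxorubicin. With miR-455 it had 2046, 2095 and 1997 CPM, against 1014, 635 and 1025 CPM, and with miR-222 1392, 1860.0 and 1698 CPM, against 1003, 1003 and 627 CPM. All 12 doxorubicin libraries were higher than all 12 others, those of the control mimic included, and the log2 difference was 1.27 ± 0.12 (adjusted p = 5.42e-08) by edgeR's quasi-likelihood test, Benjamini-Hochberg adjusted. Ldha, the HIF-induced subunit favoured for making lactate, had 1671 to 5002 CPM (median 3107) with doxorubicin and 629.8 to 3374 CPM (median 2325) without, and passed narrowly at 0.60 ± 0.24 (adjusted p = 0.0486). Its call and that of Aldoc were lost under most alternatives, close libraries averaged included (adjusted p = 0.107 and 0.116). Pdk1, the HIF-induced kinase that switches off pyruvate dehydrogenase, rose by 1.56 ± 0.39, with 44.6 to 772 CPM (median 301) with doxorubicin and 27.5 to 195 CPM (median 122) without. Its ranges overlapped through doxorubicin libraries of 44.6 and 53.4 CPM, with the control mimic and with miR-222, that were far below the other 10.

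Both monocarboxylate transporters fell. Slc16a3, the HIF-induced lactate exporter, had 66.4, 7.84 and 12.8 CPM with doxorubicin and both mimics, against 351, 386 and 11.4 CPM without doxorubicin. With miR-455 it had 31.0, 26.7 and 31.5 CPM, against 341, 100.2 and 387 CPM, and with miR-222 38.6, 119 and 34.6 CPM, against 319, 326 and 87.8 CPM. With the control mimic it had 2.02, 3.09 and 4.42 CPM with doxorubicin, against 5.88, 21.5 and 278 CPM without. The doxorubicin libraries were all lower with miR-455 and with the control mimic and overlapped the others elsewhere, and the log2 difference was -3.31 ± 0.60 (adjusted p = 1.31e-04) by edgeR's quasi-likelihood test, Benjamini-Hochberg adjusted. Slc16a1, the general lactate and pyruvate carrier, fell by 0.61 on the log2 scale (SE 0.13), a call kept with close libraries averaged, with differences of -0.50 ± 0.25 with both mimics, -1.88 ± 0.26 with miR-455, -0.18 ± 0.25 with miR-222 and 0.11 ± 0.25 with the control mimic, of which that with miR-455 passed on its own. Pfkfb3, which makes the allosteric activator of phosphofructokinase, fell by 1.75 on the log2 scale (SE 0.43), with 16.9 to 68.9 CPM (median 23.4) with doxorubicin and 15.6 to 166 CPM (median 139) without, and lost its call with close libraries averaged (adjusted p = 0.0628).

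All 3 members that make up or control HIF fell in the average over mimic conditions, where 3474 of 14303 genes tested fell. Egln3, a prolyl hydroxylase that HIF itself induces, had 24.0, 54.7 and 22.7 CPM with doxorubicin and both mimics, against 469, 469.6 and 151 CPM without doxorubicin. With miR-455 it had 42.2, 39.5 and 36.2 CPM, against 319.9, 84.9 and 383 CPM, and with miR-222 32.7, 71.7 and 16.4 CPM, against 522, 525 and 98.5 CPM. With the control mimic it had 42.4, 29.8 and 25.9 CPM with doxorubicin, against 104, 79.0 and 739 CPM without. No doxorubicin library reached the lowest library without it, and the log2 difference was -3.16 ± 0.41 (adjusted p = 2.86e-06) by edgeR's quasi-likelihood test, Benjamini-Hochberg adjusted. It was between -3.43 and -2.74 in each of the 4 mimic conditions. Egln1, the main HIF prolyl hydroxylase, fell by 1.14 (SE 0.31). It had 12 to 61.6 CPM (median 15.6) with doxorubicin and 16.9 to 102 CPM (median 55.5) without. Its differences were -1.77 with both mimics, -1.79 with miR-455, -0.98 with miR-222 and -0.02 with the control mimic, and none passed on its own. Hif1a, the regulated subunit, whose control is mostly at the protein, fell by 0.46 (SE 0.16), with 52.0 to 131 CPM (median 73.3) with doxorubicin and 80.1 to 188 CPM (median 102) without. The ranges of Egln1 and of Hif1a overlapped, and both calls were lost with close libraries averaged (adjusted p = 0.0939 and 0.0914).

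Of the 10 other HIF targets 4 fell and 6 did not pass, in an average where 3474 of 14303 genes tested fell and 3405 rose. Vegfa, the angiogenic growth factor, had 323 to 1203 CPM (median 546) with doxorubicin and 256 to 2676 CPM (median 1475) without. It fell by 1.04 on the log2 scale (SE 0.36), and its ranges overlapped widely. The 5 libraries without doxorubicin that were low for most members had 255.9 to 411.6 CPM of Vegfa. By condition Vegfa had -1.48 with both mimics, -1.47 with miR-455, -1.13 with miR-222 and -0.10 with the control mimic, and none passed alone. Bhlhe40, a transcriptional repressor, fell by 1.28 (SE 0.27), Kdm3a, a histone demethylase, by 0.76 (SE 0.21), and Ankrd37, an ankyrin repeat protein, by 1.94 (SE 0.54), from levels of at most 18.0 CPM. With close libraries averaged, the calls of Vegfa, Kdm3a and Ankrd37 were lost (adjusted p = 0.215, 0.0794 and 0.104) and that of Bhlhe40 was kept. Adm, Ndrg1, Ddit4, Higd1a and P4ha1 did not pass, with differences of -0.56, -0.23, -1.06, 0.47 and 0.16.

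Bnip3, a mitophagy receptor induced by HIF, was called with doxorubicin in the control mimic condition and not in the other 3. It had 99.1, 136 and 79.7 CPM with doxorubicin and both mimics, against 284, 271 and 49.2 CPM without doxorubicin. With miR-455 it had 834, 800.4 and 798 CPM, against 596, 123 and 647 CPM, and with miR-222 31.4, 158 and 67.4 CPM, against 307, 304 and 28.3 CPM. With the control mimic it had 1170.3, 152 and 946 CPM with doxorubicin, against 77.9, 52.4 and 253 CPM without. With doxorubicin, both groups that received miR-222 were at 31.4 to 158 CPM and the 3 libraries of miR-455 at 798 to 834 CPM, while the control mimic had 1 library at 152 CPM and the other 2 at 1170.3 and 946 CPM. The log2 difference of doxorubicin was 2.56 ± 0.90 (adjusted p = 0.0395) with the control mimic, which passed edgeR's quasi-likelihood test with Benjamini-Hochberg adjustment, and -1.32 ± 0.87 (adjusted p = 0.362) with miR-222, which did not. The difference between these 2 responses was -3.88 ± 1.25 (adjusted p = 0.272) and did not pass by the same test.

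**Figure D3:**
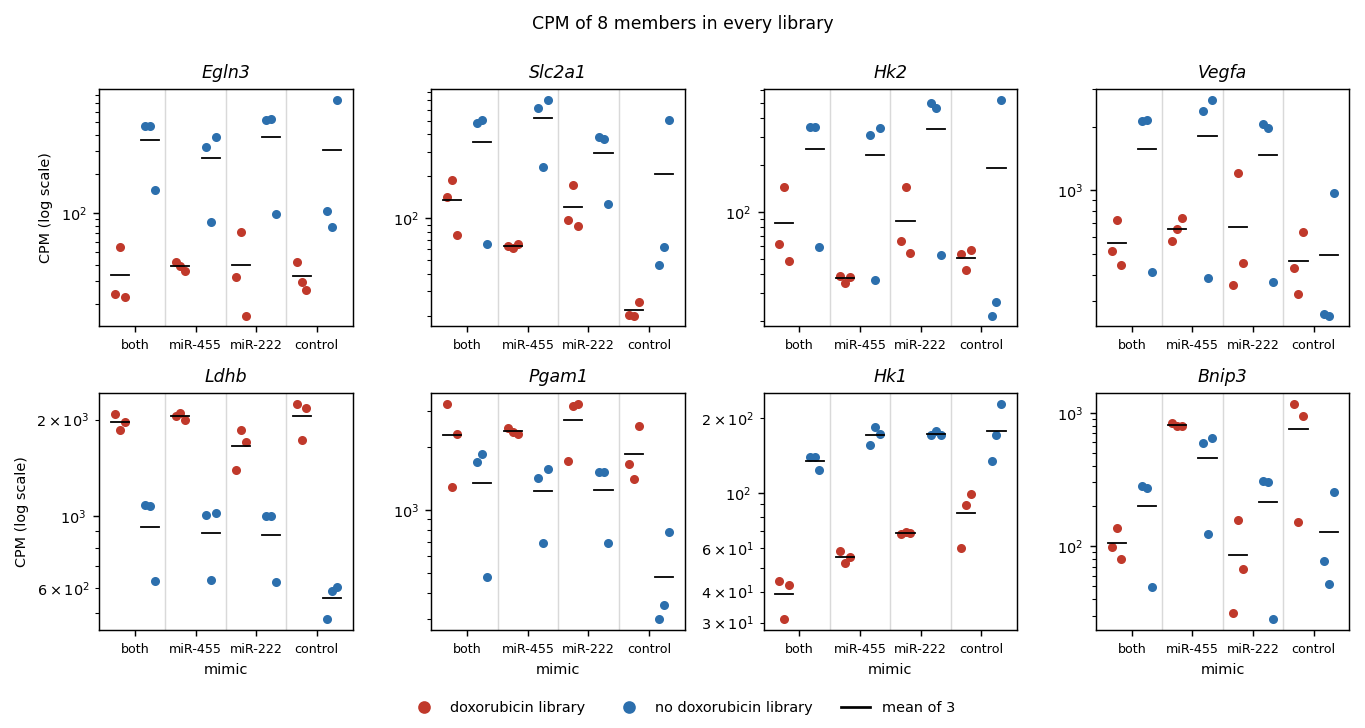
Each panel shows the CPM of 1 member on a log axis in the 24 libraries, by mimic condition, with doxorubicin in red left of no doxorubicin in blue and a line at the mean of 3. Red and blue points do not overlap for Egln3, Ldhb and Hk1, and some blue points fall among the red ones for Hk2, Vegfa and Slc2a1.

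Where 2 members catalyse or carry the same step, their ratio within a library hardly depends on the scaling of that library. The mean over the 4 mimic conditions of the difference in log2((CPM + 1)/(CPM + 1)), doxorubicin minus none, was compared by an exact two-sided permutation test of libraries within each condition, with Benjamini-Hochberg adjustment over the 8 ratios. Pgam2 to Pgam1 changed by -1.89 (adjusted p = 2e-04 by the exact permutation test), and the doxorubicin libraries were all lower in 3 of the 4 mimic conditions. Slc2a4 to Slc2a1 changed by 1.96 (adjusted p = 0.00135), with 3.55 for the control mimic and 0.69 for both mimics at the extremes. Slc16a3 to Slc16a1 changed by -2.01 (adjusted p = 0.0106), Ldhb to Ldha by 0.59 (adjusted p = 0.00388) and Aldoc to Aldoa by 0.52 (adjusted p = 0.0016). With close libraries averaged, the lactate carriers and the lactate dehydrogenases no longer passed (adjusted p = 0.0893 and 0.0653 by the exact test). Pfkm to Pfkl, at 0.39, did not pass (adjusted p = 0.0507). Nor did Eno3 to Eno1, at -0.20 (adjusted p = 0.443), or Hk2 to Hk1, at 0.11 (adjusted p = 0.838). Hk2 fell with Hk1, and their ratio ranged widely among libraries without doxorubicin, from -2.65 to 1.54.

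**Figure D4:**
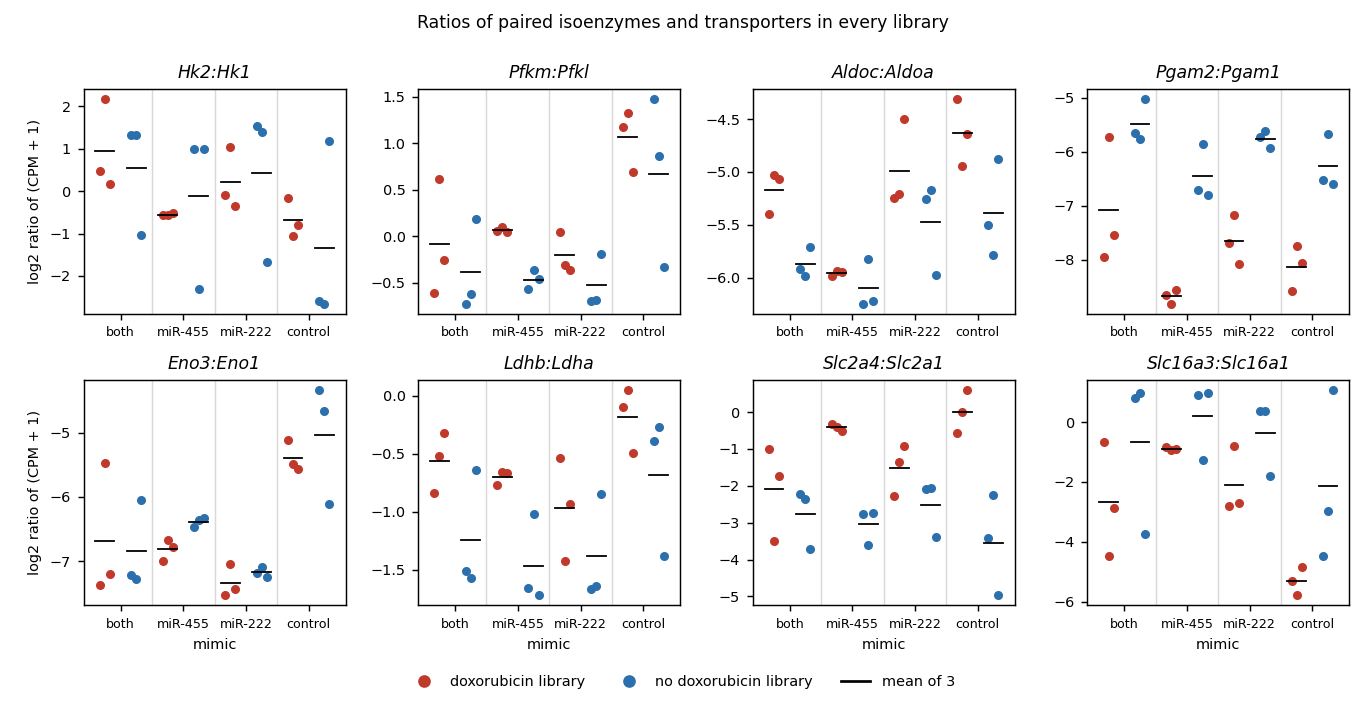
Each panel shows the log2 ratio of CPM + 1 of 2 members in each of the 24 libraries, with doxorubicin in red left of no doxorubicin in blue and a line at the mean of 3. The ratio of Pgam2 to Pgam1 is lower with doxorubicin in all libraries of 3 mimic conditions, and that of Hk2 to Hk1 spreads from -2.65 to 1.54 without doxorubicin.

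Within single mimic conditions, 3 libraries against 3, fewer members passed. Against the background of the control mimic, doxorubicin changed 16 of 37, 11 higher and 5 lower, where 27.5% of all genes were called, 15.2% higher and 12.3% lower, and the members' median was 0.75 against 0.02 for all genes. The 11 that rose were Bnip3, Gpi, Pfkm, Tpi1, Pgk1, Pgam1, Eno1, Eno3, Pkm, Ldhb and Pdk1, and the 5 that fell were Hk1, Slc2a1, Slc16a3, Egln3 and Bhlhe40. Slc2a1 had 20.4, 20.1 and 25.1 CPM with doxorubicin, against 45.9, 62.8 and 510.0 CPM without, a difference of -3.24 ± 0.80 (adjusted p = 0.00534) by edgeR's quasi-likelihood test with Benjamini-Hochberg adjustment. Ldhb had 2243, 1723 and 2170.3 CPM, against 479, 587 and 603 CPM, a difference of 1.88 ± 0.25 (adjusted p = 1.82e-05) by the same test. Both genes were separated without overlap, as were 15 of 37 members and 33.5% of all genes. Pdk1 had 772, 44.6 and 384 CPM, against 40.6, 27.5 and 56.9 CPM, and rose by 3.26 ± 0.84 although its replicate 2 lay within the control range. The count was 8 without replicate 1 of the control mimic alone and 9 without replicate 3 of doxorubicin with the control mimic, where 19.8% and 21% of all genes were called, and 10 with close libraries averaged.

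With both mimics doxorubicin changed 3 members, 1 higher and 2 lower, where 15.1% of all genes were called, 7.85% higher and 7.24% lower. With miR-455 it changed 6, 1 higher and 5 lower, where 18.1% were called, 9.02% higher and 9.11% lower. With miR-222 it changed 3, 1 higher and 2 lower, where 14.6% were called, 7.76% higher and 6.87% lower. Hk1 and Egln3 fell and Ldhb rose in each of these 3 conditions. With miR-455 Slc2a1, Slc16a1 and Kdm3a fell as well: Kdm3a had 39.2, 38.5 and 40.1 CPM with doxorubicin, against 135, 43.1 and 133 CPM, a difference of -1.40 ± 0.42 (adjusted p = 0.0242) by edgeR's quasi-likelihood test, Benjamini-Hochberg adjusted. Groups did not overlap for 6 members with both mimics, 24 with miR-455 and 6 with miR-222, against 24.6%, 53.8% and 49.3% of all genes. The members' medians were -0.25 with both mimics, -0.59 with miR-455 and -0.18 with miR-222, where all genes had -0.07, 0.00 and 0.00. With close libraries averaged, Hk1 alone passed with both mimics and with miR-222, and no member passed with miR-455, whose 3 doxorubicin libraries then count as 1. The counts were 10 with miR-455 without replicate 2 of miR-455 alone and 3 without replicate 2 of doxorubicin with miR-455, 5 with both mimics without replicate 3 of both mimics alone, and 1 with miR-222 without replicate 3 of doxorubicin with miR-222. In these 4 fits 17.7%, 10.7%, 20% and 8.82% of all genes were called.

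Whether a mimic altered the doxorubicin response was tested as the response with the mimic minus that with the control mimic. No member passed edgeR's quasi-likelihood test with both mimics, miR-455 or miR-222, where 0.0559%, 0% and 0.0489% of all genes did. At an unadjusted p under 0.05 there were 4, 4 and 3 members, and DESeq2's test called 0, 1 and 1. The shares of all genes at that p and by DESeq2's test are not given here. The median over members was -0.89, -1.08 and -0.83 log2 units, against -0.10, -0.07 and -0.07 over all genes, and these 3 comparisons share the control libraries, of which replicates 1 and 2 without doxorubicin were low for most members. The nearest to passing was Slc16a1 with miR-455, at -1.99 ± 0.36 (adjusted p = 0.0566) by edgeR's test.

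Without doxorubicin, members tended to be higher with each mimic than with the control mimic, but few passed. With both mimics 1 member rose and 0 fell, where 7.06% of all genes were called, 3.67% higher and 3.39% lower. With miR-455 1 rose and 0 fell, where 4.72% were called, 2.47% higher and 2.25% lower. With miR-222 3 rose and 0 fell, where 8.97% were called, 4.5% higher and 4.47% lower. In each comparison 33 of 37 members had a positive difference, with medians of 1.28, 1.27 and 1.26 log2 units, against 53.6%, 52.9% and 52.6% of all genes and medians of 0.07, 0.06 and 0.06. The 3 comparisons share the same control libraries. Groups did not overlap for 4, 8 and 5 members, against 21.2%, 29% and 37.8% of all genes. At an unadjusted p under 0.05 there were 18, 21 and 18 members, and the shares of all genes at that p are not given here.

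Markers of other cell types differed in the same comparisons. Of 7 fibroblast markers 3 were called lower with both mimics, 2 with miR-455 and 3 with miR-222, and 0 were called higher in each. Lum, a matrix proteoglycan, was among them each time, at -1.80 ± 0.53, -1.95 ± 0.53 and -2.20 ± 0.53, and Thy1, a fibroblast surface protein, had -2.42 ± 0.55 with both mimics and -2.57 ± 0.56 with miR-222. Of 5 smooth muscle and pericyte markers 1 was called lower with both mimics, 0 with miR-455 and 2 with miR-222. Of 8 cardiomyocyte markers only Myl2 was called, higher with miR-455 at 1.69 ± 0.22, and of 4 endothelial markers only Vwf, higher with miR-222 at 2.77 ± 0.74. No macrophage marker of 4 was called by edgeR's test, with 1 at an unadjusted p under 0.05 in each comparison. The summed fibroblast level was 14784 to 20378 CPM with both mimics, 25387 to 28473 with miR-455 and 16553 to 18552 with miR-222, against 19179 to 29756 with the control mimic. The summed cardiomyocyte level was 23080 to 28303, 32623 to 39821 and 22133 to 23238 CPM, against 19747 to 24810 with the control mimic. Summed smooth muscle markers had 1266 to 3067, 2621 to 2725 and 1080 to 2109 CPM, against 2753 to 3831 with the control mimic. For endothelial markers the sums were 16.7 to 29.4, 30.4 to 40.3 and 32.6 to 36.9 CPM, against 43.9 to 66.6. The part of these shifts in the members' differences was not tested.

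Pgam2 had 32.7, 33.2 and 13.7 CPM with both mimics and 27.9, 30.2 and 10.4 CPM with miR-222, against 2.26, 5.91 and 7.10 CPM with the control mimic. Every library of both mimic groups was above every control library, and the log2 differences were 2.38 ± 0.51 (adjusted p = 0.00922) with both mimics and 2.16 ± 0.51 (adjusted p = 0.0133) with miR-222 by edgeR's quasi-likelihood test, Benjamini-Hochberg adjusted. Gpi rose by 1.75 ± 0.51 (adjusted p = 0.0361) with miR-222 by the same test, with 1623, 1539.6 and 492 CPM, against 251, 342 and 489.9 CPM with the control mimic. The lowest miR-222 library stood just above the highest control library. Slc16a1 rose by 0.82 ± 0.25 (adjusted p = 0.0463) with miR-222, with 247, 254 and 310.3 CPM, against 149.8, 176 and 133 CPM, by edgeR's quasi-likelihood test. Pfkp, the platelet phosphofructokinase, rose by 1.08 ± 0.26 (adjusted p = 0.0272) with miR-455, with 634, 516 and 677 CPM, against 263, 238 and 361 CPM, by the same test, and did not overlap. None of these 5 calls held with close libraries averaged (adjusted p = 0.197 to 0.427).

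These counts turned on single libraries. Without control replicate 3, the library high for most members, 6 members passed with both mimics, 13 with miR-455 and 14 with miR-222, where 5.46%, 7.95% and 11.2% of all genes did. Without the low library of the mimic group, replicate 3 of both mimics, replicate 2 of miR-455 or replicate 3 of miR-222, 16, 13 and 9 passed, where 18.6%, 13.6% and 9.81% of all genes did. Without either of the other 2 libraries of a mimic group 0 passed in its comparison, where 1.82% to 1.94%, 0.109% to 0.28% and 2.05% to 2.07% of all genes did. Without control replicate 1, 0 passed with miR-455 and with miR-222, where 0.741% and 3.4% of all genes did. Without control replicate 2, 0 passed with miR-455 and 1 with miR-222, where 1.38% and 4.62% did. All members called in these fits were higher with the mimic.

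**Figure D5:**
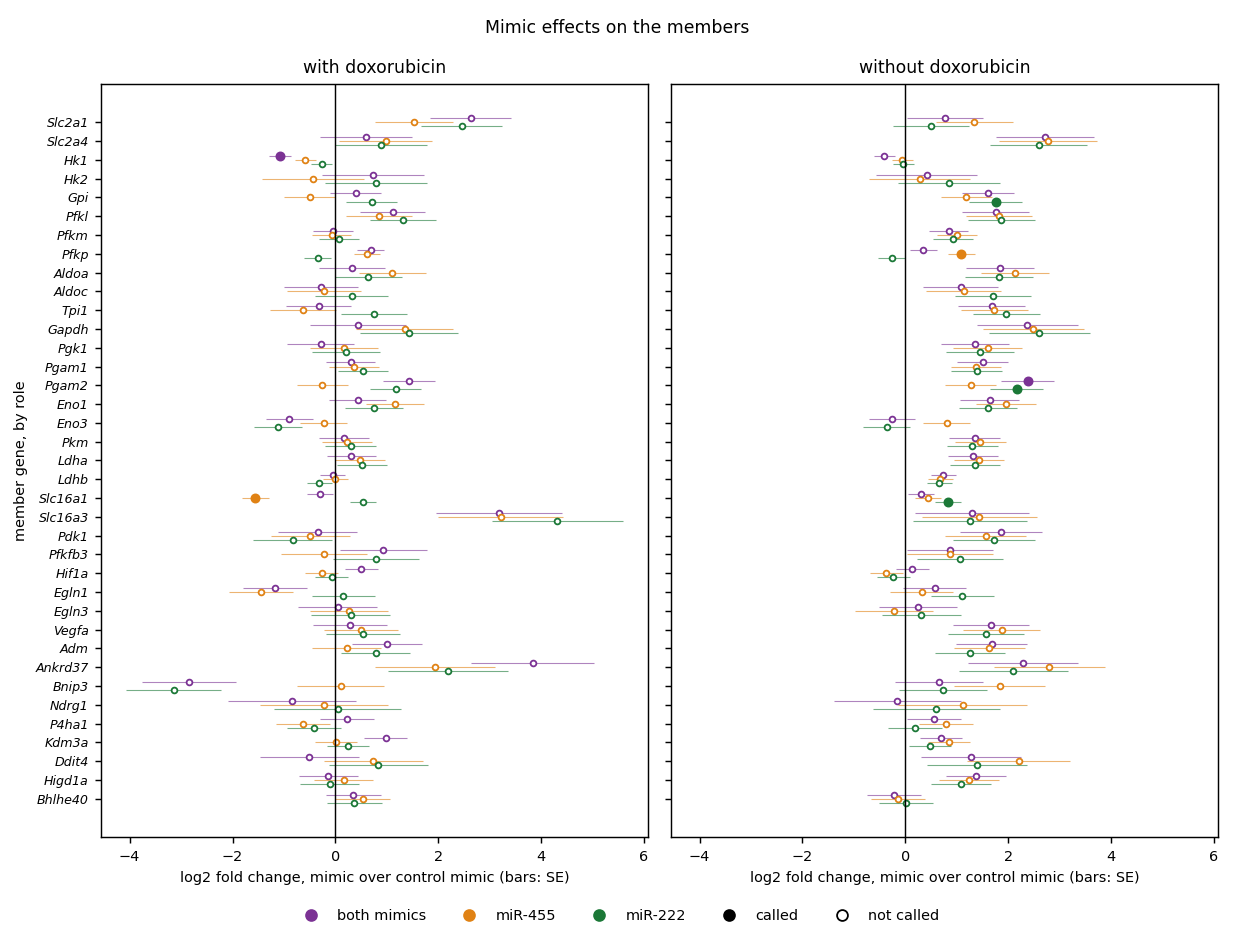
Points are the log2 fold change of each mimic condition over the control mimic for each member, with SE bars, with doxorubicin on the left and without on the right, and filled where the test was passed. On the right 33 of 37 members lie above 0 for each mimic while only 4 members, Pgam2, Gpi, Slc16a1 and Pfkp, have filled points, and on the left only Hk1 and Slc16a1 have them.

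With doxorubicin, single members differed between mimics. The members' median difference from the control mimic was 0.29 with both mimics, 0.16 with miR-455 and 0.53 with miR-222, against -0.06, 0.02 and -0.00 for all genes, and groups did not overlap for 10, 15 and 4 members, against 17.8%, 26.6% and 26.3% of all genes. Hk1 was lower with both mimics, where it had 44.3, 30.9 and 42.5 CPM, against 59.9, 89.1 and 99.4 CPM with the control mimic. No library overlapped, and the log2 difference was -1.08 ± 0.21 (adjusted p = 0.00304) by edgeR's quasi-likelihood test, Benjamini-Hochberg adjusted, in a comparison that called 5.55% of all genes, 2.78% higher and 2.78% lower. With close libraries averaged its adjusted p was 0.0501. Slc16a1 was lower with miR-455, where it had 56.1, 51.9 and 60.3 CPM, against 118, 223 and 153 CPM with the control mimic, a difference of -1.55 ± 0.26 (adjusted p = 0.00134) in a comparison that called 2.5% of all genes, 0.657% higher and 1.85% lower. Neither group overlapped the other. It was also higher with both mimics, at 105, 195 and 101 CPM, than with miR-455, by 1.25 ± 0.25 (adjusted p = 0.01) in a comparison that called 2.48% of all genes, 1.55% higher and 0.93% lower. That last call was lost without replicate 2 of doxorubicin with both mimics and without replicate 1 or replicate 2 of doxorubicin with miR-455. Both Slc16a1 calls were lost with close libraries averaged (adjusted p = 0.667 and 0.994), which leaves miR-455 with doxorubicin 1 library.

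For miR-222 with doxorubicin no member passed edgeR's quasi-likelihood test, where 3.95% of all genes did, 1.59% higher and 2.36% lower. There were 6 members at an unadjusted p under 0.05, and DESeq2's test called 3. Slc16a3 had 38.6, 119 and 34.6 CPM with miR-222, against 2.02, 3.09 and 4.42 CPM with the control mimic, a difference of 4.31 ± 1.28 (adjusted p = 0.067) by edgeR's test, and no library overlapped. Bnip3 differed by -3.14 ± 0.92 (adjusted p = 0.0642) with miR-222 and by -2.85 ± 0.91 (adjusted p = 0.0717) with both mimics by the same test. Neither passed. The lowest control library lay within the range of the miR-222 group, while all 3 libraries of both mimics were below the control libraries. Both mimics against miR-222 alone, both with doxorubicin, called no member and 0.161% of all genes by edgeR's test. In that comparison 4 members had an unadjusted p under 0.05 and DESeq2 called 2. For the counts at an unadjusted p and by DESeq2 in this paragraph, the shares of all genes are not given.

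Genes of the same pathways outside the list were also counted in the average over mimic conditions, by edgeR's quasi-likelihood test. The background was 48.1% of all genes called. Of 32 other genes of glycolysis, glycogen and pyruvate 12 rose and 7 fell (59.4% called), with a median of -0.11. The 4 with the smallest p were Pdhb at 1.70 ± 0.08, Pdha1 at 1.67 ± 0.18 and Dlat at 1.53 ± 0.09, which are subunits of pyruvate dehydrogenase, and Pygm, muscle glycogen phosphorylase, at 1.00 ± 0.13. Of 16 other HIF pathway genes 3 rose and 8 fell (68.8% called), with a median of -0.42. Eloc and Elob, the elongins of the ubiquitin ligase that marks HIF for degradation, rose by 1.00 ± 0.10 and 1.04 ± 0.14. The same list holds Cul2, Rbx1 and Vhl, further parts of that ligase, whose values are not given here. The rise of the elongins therefore does not describe the ligase as a whole. Arnt, the partner subunit of HIF, and Siah2, a ubiquitin ligase that acts on prolyl hydroxylases, had -0.80 ± 0.13 and -1.38 ± 0.17. Of 40 other HIF targets 9 rose and 12 fell (52.5% called, near the background), with a median of 0.03. Plod2, a collagen lysyl hydroxylase, Tfrc, the transferrin receptor, and Bnip3l, a relative of Bnip3, rose by 1.21 ± 0.13, 1.21 ± 0.18 and 1.01 ± 0.15, while Ppp1r3c, a glycogen targeting subunit of protein phosphatase, had -2.39 ± 0.29.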

How the data were processed

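PolyA RNA of 24 libraries in 8 groups of 3 was measured by RNA-seq. The values used are expected counts per gene symbol, as deposited by the authors. Salmon, DESeq2 and the build Rnor_6.0 are named in the submitters' processing notes, without roles or tool versions. The deposited table calls itself filtered, by a rule not given in the sources used here. Rounding to whole numbers altered 7.35% of the values, and library totals were 17311949 to 25750309, so counting error is small for all but the lowest members.

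In R 4.3.3, genes were filtered with edgeR's filterByExpr and scaled by TMM, and 1 model over the 8 groups was fitted with edgeR 4.0.16 (limma 3.58.1), with quasi-likelihood F tests and Benjamini-Hochberg adjustment over all genes at 0.05. The procedure was tested on simulated data drawn independently for each gene and library. That test does not cover close libraries or genes that move together within a group, both present here. CPM use TMM-scaled library sizes. Ratios of isoenzymes used log2 of CPM plus 1 and exact permutation tests. Alternatives were DESeq2 1.42.0, its size factors, other filters, a replicate block, fits on the compared groups only, a pseudocount of 0.1 CPM for ratios, averaging of close libraries (chi-square per degree of freedom under 10), and leaving out each library or the 4 with the fewest genes. All members may be named. Values per library are given for up to 6 called members with the smallest p per comparison, for Slc2a1, Hk2, Ldha, Pdk1, Vegfa, Egln3, Bnip3 and Hif1a, and for the widest members within groups. Other lists give up to 4 genes per comparison. Values per library of Ndrg1, Gapdh and Slc16a3 beyond that rule were chosen after they were seen. The members and lists were chosen with earlier results of these data known.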

Additional observations from a re-analysis of the deposited data

How the results depend on the processing

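No called member changed sign under any alternative tried. Averaging close libraries had the widest effect: members called were 10 for doxorubicin with the control mimic, 14 averaged over mimics, 1 with both mimics, 0 with miR-455 and 1 with miR-222, and 0 for both mimics, miR-455 and miR-222 without doxorubicin, for both mimics and miR-455 with doxorubicin, and for both mimics against miR-455. The ratio Ldhb to Ldha was then 0.49 and Slc16a3 to Slc16a1 -1.63. Fits on only the groups compared called 0 with both mimics, 19 with miR-455, 5 with miR-222 and 7 with the control mimic for doxorubicin, 0 for each mimic comparison without it, and 0, 2 and 2 for both mimics, miR-455 and miR-222 with it. DESeq2's test called 5 for doxorubicin with both mimics and 11 with miR-455, 8, 11 and 12 for both mimics, miR-455 and miR-222 without doxorubicin, 6 and 3 for both mimics and miR-222 with it, 3 and 2 for both mimics against miR-455 and miR-222, and 1 for each single-mimic response. A filter of 1 CPM in 3 libraries called 2 for both mimics with doxorubicin. The shares of all genes called in the fits of this paragraph are not given here, so these counts have no background.

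Without the 4 libraries with the fewest genes, doxorubicin called 12 with both mimics, 16 with miR-455 and 6 with miR-222. Mimics called 10 (both) and 2 (miR-455) without doxorubicin, 5, 2 and 2 (both, miR-455, miR-222) with it, 2 for both against miR-222, and 2 and 1 for the responses with both mimics and miR-455. The ratio Hk2 to Hk1 was then -0.46 and Pfkm to Pfkl 0.46 (adjusted p = 0.00511 by the exact permutation test). The shares of all genes called without these libraries are not given here, so the counts of members have no background. These fits also hold fewer libraries, and the cause of these shifts was not tested.

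Leaving out 1 library at a time, doxorubicin called 3 to 5 with both mimics, 3 to 10 with miR-455, 1 to 3 with miR-222, 8 to 16 with the control mimic and 22 to 25 on average. Mimics without doxorubicin called 0 to 16 (both), 0 to 13 (miR-455) and 0 to 14 (miR-222), and with it 1 to 2, 1 to 1 and 0 to 1. Both mimics against miR-455 called 0 to 1 and against miR-222 0 to 0, and the responses 0 to 0 (both), 0 to 1 (miR-455) and 0 to 0 (miR-222). Ratios ran from -0.17 to 0.43 for Hk2 to Hk1, negative without 6 of the 24 libraries (-0.05, -0.05, -0.05, -0.09, -0.15 and -0.17), 0.26 to 0.49 for Pfkm to Pfkl, 0.46 to 0.59 for Aldoc to Aldoa, -2.06 to -1.78 for Pgam2 to Pgam1, -0.35 to -0.10 for Eno3 to Eno1, 0.50 to 0.66 for Ldhb to Ldha, 1.78 to 2.14 for Slc2a4 to Slc2a1 and -2.39 to -1.61 for Slc16a3 to Slc16a1.

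Replicate numbers do not pair the libraries: correlations of same-numbered deviations ran from -0.58 to 0.45, and 4 of 24 libraries correlated best with their own number. With the replicate block, members called were 13 for doxorubicin with the control mimic, 23 on average and 2 for miR-222 without doxorubicin. The other counts were as in the fit without it. Shares of all genes called are not given for the block, and for fits without 1 library only where printed above.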

Other observations

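Genes of the same pathways outside the list were also compared between mimics without doxorubicin, by edgeR's quasi-likelihood test, in comparisons that share the control libraries. Mt1, a metallothionein, rose with both mimics, with miR-455 and with miR-222, by 3.07 ± 0.49, 2.33 ± 0.48 and 2.55 ± 0.48 log2 units. Edn1, which encodes endothelin, had -1.33 ± 0.37 with both mimics and -1.69 ± 0.37 with miR-222, both passing the test, and -0.34 ± 0.36 with miR-455, which did not pass. Pdk4, a pyruvate dehydrogenase kinase, rose by 2.51 ± 0.75 with both mimics and by 2.80 ± 0.76 with miR-222, and had 2.56 ± 0.75 with miR-455, which did not pass. Pdhx, a subunit of pyruvate dehydrogenase, rose by 1.19 ± 0.27 with both mimics and 1.08 ± 0.27 with miR-455, and had 0.57 ± 0.27 with miR-222, which did not pass. Of 32 other genes of glycolysis, glycogen and pyruvate, 5, 2 and 4 rose with both mimics, miR-455 and miR-222, and 0 fell in each, where 7.06%, 4.72% and 8.97% of all genes were called in either direction.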
